A study of Homo sapiens with 2 samples.

Results

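Acetylation of lysine 27 of histone H3 (H3K27ac) was described at the genes SATB1, TOX, GFI1, SOX4 and RORA in LOUCY, an established cell line from a human T-cell acute lymphoblastic leukaemia. The genes were picked with earlier results of these data known, and the peaks at them were then taken by position: a peak of the deposited list was taken if it overlapped by 1 bp or more the hg19 body of a gene or the 50 kb on either side of it. In all, 66 of the 52203 peaks of the list met this rule, 10 at SATB1, 26 at TOX, 6 at GFI1, 5 at SOX4 and 19 at RORA. The study held 1 ChIP library, precipitated from cross-linked and sonicated LOUCY chromatin with an antibody against H3K27ac, and 1 library of input DNA from the same line. No treatment, genotype change or time course is named in the labels. The ChIP library had 54357332 tags after the peak caller's filter and the input library 71932640. There were no replicates, so every value below describes these libraries, and no difference between loci could be tested against replicate error.

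H3K27ac is found at active promoters and enhancers, where acetyltransferases such as EP300 and CREBBP place it on nucleosomes beside bound transcription factors. Broad or clustered acetylation is often seen around genes of cell identity. The genes here encode nuclear regulators of lymphocyte development. SATB1 is a chromatin organiser that binds AT-rich DNA and is abundant in thymocytes. TOX is a high-mobility-group (HMG) box protein needed for the CD4 lineage in the thymus and for innate lymphoid cells. GFI1 is a zinc finger repressor that recruits histone-modifying enzymes and acts in blood stem cells, granulocytes and T cells. SOX4 is an HMG box transcription factor of lymphoid progenitors, and RORA is an orphan nuclear receptor of innate lymphoid and helper T cells.

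At 4 of the 5 genes a peak lay over the start of the gene, and RORA was the exception. The share of all genes with a start peak was not computed, since no full hg19 annotation was used. The windows from 250 bases before to 50 after the outermost RefSeq start are shown for the genes whose start was under a peak and whose window was at hand. They lie at chr3:18445543-18445842, minus strand, for SATB1, at chr1:92486876-92487175, minus strand, for GFI1 and at chr6:21593501-21593800, plus strand, for SOX4, all in the GRCh38.p14 build of RefSeq, whereas the peaks are in hg19. The windows were joined to the loci by gene name, with no conversion of coordinates. Capitals mark matches to the motifs named after them.
SATB1: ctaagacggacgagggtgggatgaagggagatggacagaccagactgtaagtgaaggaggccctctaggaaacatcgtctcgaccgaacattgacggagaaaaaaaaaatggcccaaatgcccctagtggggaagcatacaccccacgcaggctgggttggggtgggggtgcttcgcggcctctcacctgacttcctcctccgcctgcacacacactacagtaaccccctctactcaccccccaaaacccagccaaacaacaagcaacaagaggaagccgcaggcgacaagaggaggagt
GFI1: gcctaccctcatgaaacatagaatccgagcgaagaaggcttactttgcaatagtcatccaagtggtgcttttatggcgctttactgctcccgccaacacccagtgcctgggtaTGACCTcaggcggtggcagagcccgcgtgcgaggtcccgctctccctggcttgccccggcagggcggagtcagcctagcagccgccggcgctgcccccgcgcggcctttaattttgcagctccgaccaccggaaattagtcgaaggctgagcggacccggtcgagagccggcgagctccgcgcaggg
SOX4: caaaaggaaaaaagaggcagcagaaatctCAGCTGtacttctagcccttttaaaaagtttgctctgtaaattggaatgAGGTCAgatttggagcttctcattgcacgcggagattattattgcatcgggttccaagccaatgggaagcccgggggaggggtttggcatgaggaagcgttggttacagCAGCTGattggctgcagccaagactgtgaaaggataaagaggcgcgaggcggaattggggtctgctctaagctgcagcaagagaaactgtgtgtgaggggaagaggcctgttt
The motifs searched, on both strands, were TGTGGT (bound by RUNX factors), AGATAA (bound by GATA factors), CCGGAAG (by ETS factors) and CAGCTG (E-box). Also searched were ACAAAG (SOX or TCF), AGGTCA (only a part of the element of ROR receptors) and AAATCA (the core bound by GFI1). The SOX4 window held CAGCTG at 221 and at 63 bases before the start and AGGTCA on the plus strand at 172 bases before it. The SOX4 start peak began at only -0.037 kb from the start used, which is rounded to 1 kb. These SOX4 matches were therefore not shown to lie under a peak. In the GFI1 window AGGTCA was on the minus strand, as TGACCT, beginning 137 bases before the start. No match to the 7 motifs was in the outermost SATB1 window, the one shown. Other SATB1 windows, at inner starts, held matches to the RUNX, E-box, ROR and GFI1 motifs. Inner GFI1 windows held matches to the RUNX and ETS motifs. The only RORA window, also at an inner start, held the SOX or TCF motif on each strand. Whether these inner windows lie under peaks was not examined. Among the 35116 promoter windows of the RefSeq table, CAGCTG was in 17.9% and AGGTCA in 13.8%. The shares of the others were 13.1% for TGTGGT, 10.3% for AGATAA, 10.3% for CCGGAAG, 16.1% for ACAAAG and 13.2% for AAATCA. A match is only a run of letters, and its absence says nothing of the factor. The GFI1 window had a GC share of 63.3% and 27 CpG dinucleotides, that of SATB1 56.7% and 12, and that of SOX4 49.3% and 8, against a median of 58.7% and 14 over all windows.

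Taken as a group, the 66 peaks had a lower median fold than the list as a whole, and most of the strongest were wide. Fold is the authors' value per peak, the ChIP signal divided by the local input level. The median fold was 2.60 (interquartile range 2.24 to 4.45) over the 66 peaks, against 3.08 (2.42 to 5.70) over all peaks. A fold of at least 6 was found in 11 of the 66, or 16.7%, against 23.2% of all peaks. A fold below 3 was found in 38 of the 66, or 57.6%, against 48.2% of all peaks. At the upper end the order was turned round. A fold of at least 10 was reached by 5 of the 66, or 7.58%, against 5.21% of all peaks, and a width of at least 10000 bp by 4 of the 66, or 6.06%, against 4.37%. The 5 were 3 peaks of TOX and 2 of SOX4, and the 4 wide ones were all among them. With so few peaks these shares are close to those of the list. A -log10 q of at least 10, the caller's value for its confidence in a peak, was found in 20 of the 66, or 30.3%, against 36.8% of all peaks.

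**Figure D1:**
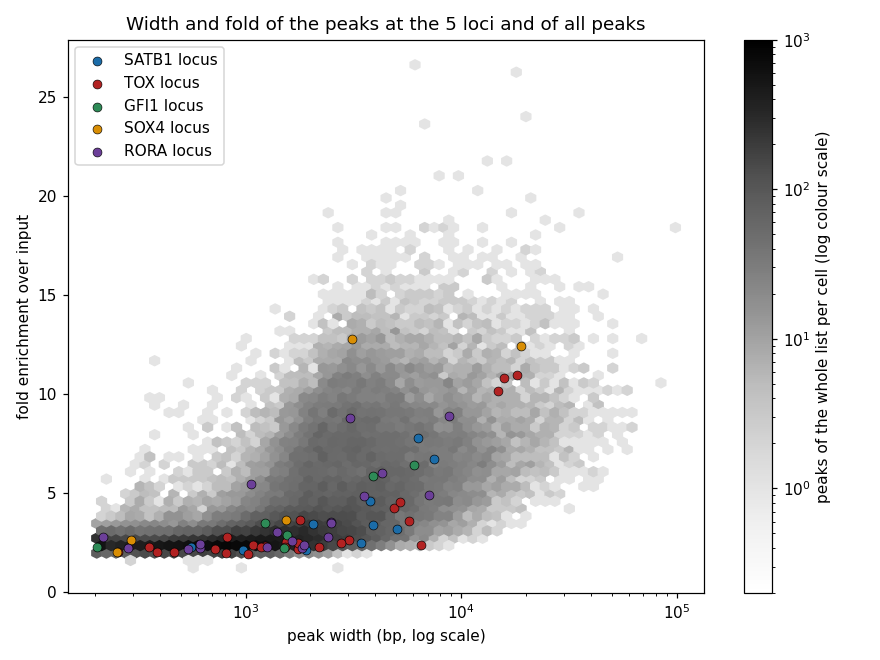
Width in bp (log scale) against fold over input for the 66 peaks, coloured by locus, and for all 52203 peaks as grey cells whose shade gives their number. The 3 red and 1 orange points at widths above 10000 bp and folds above 10 are the broad peaks of TOX and SOX4, and most other points lie in the dense band at a fold below 3.

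The loci differed in how much of their length was under peaks. At TOX 23.1% of the 414 kb locus was covered, at SOX4 22.3% of 105 kb, at SATB1 16.2% of 200 kb, at GFI1 12.9% of 112 kb and at RORA 5.40% of 842 kb, against 4.90% of the genome. The flanks of 50 kb weigh most on the short genes, and the order changed without them. In the gene body alone the share was 100% at SOX4, 36.6% at GFI1, 27.5% at SATB1, 19.7% at TOX and 5.46% at RORA. SATB1, TOX, GFI1 and SOX4 lay above the level of their own chromosomes, which were covered to 4.94%, 3.85%, 5.97% and 4.92% in that order. RORA lay at the level of its chromosome, 5.43%. A share as high as that of TOX was seen in 5.49% of the 30353 fixed bins of 100 kb in the genome, one as high as that of SOX4 in 5.83%, SATB1 in 9.27%, GFI1 in 12.0% and RORA in 25.6%. The loci are longer than the bins, TOX and RORA by several times, so these shares place the loci only roughly. With all peaks counted, TOX had 6.28 per 100 kb, GFI1 5.36, SATB1 5.00, SOX4 4.76 and RORA 2.26. The first place of TOX rested on its weak peaks. With only peaks of -log10 q 10 or more, a count added after seeing the data, SATB1 had 2.0 per 100 kb, SOX4 1.90, GFI1 1.79, TOX 1.45 and RORA 0.713. RORA was the lowest in both counts.

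**Figure D2:**
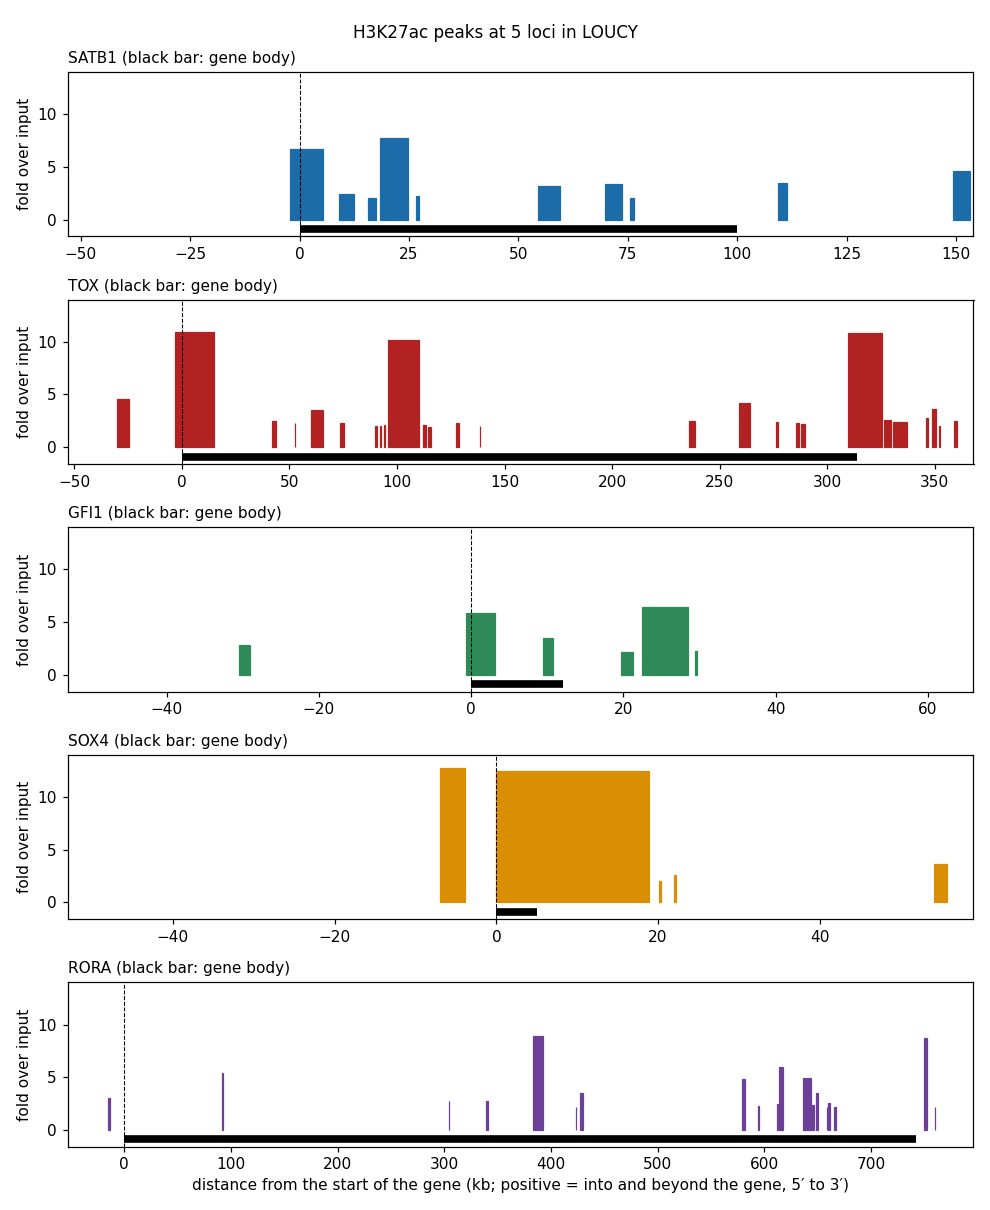
Each block is a peak, drawn from its first to its last base against the distance from the start of its gene (kb), with the fold over input as its height; the black bar is the gene body and the dashed line its start. Peaks cover the start of SATB1, TOX, GFI1 and SOX4, while at RORA no peak touches the start and the peaks gather towards the 3′ end.

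SOX4, a gene of 5 kb that RefSeq places between the named protein-coding genes CDKAL1 and PRL, had the strongest peaks of the loci. The whole gene body was under a broad peak of 18904 bp at chr6:21593963-21612866, with a fold of 12.4 and a -log10 q of 93.0. It ran from the start to 18.9 kb downstream, so most of it lay beyond the 3′ end of the gene. By width it ranked 588 and by fold 755 of all peaks. A narrower peak of 3124 bp before the gene, at chr6:21587024-21590147 or -6.98 to -3.85 kb from the start, had the highest fold of the 66, 12.8, rank 624. Both peaks were above at least 98.6% of the list by fold, and together they held 97.6% of the summed fold times width of the locus. The remaining 3 peaks were small. A pair of 254 and 294 bp downstream of the broad peak had folds of 2.03 and 2.60, and a peak of 1539 bp at chr6:21648173-21649711 had a fold of 3.62.

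TOX had 26 peaks, and 3 of them stood far above the rest. The first covered the start, at chr8:60016832-60035045, from -3.05 to 15.2 kb, with a width of 18214 bp, a fold of 10.9 and a -log10 q of 79.3. Next, inside the gene, 14779 bp at chr8:59921598-59936376, 95.6 to 110 kb from the start, had a fold of 10.1 and a -log10 q of 92.0. At the 3′ end, 15760 bp at chr8:59706646-59722405 crossed the end of the gene body with a fold of 10.8. The 3 peaks were thus alike in width and fold while lying at the start, inside and at the end of a gene of 314 kb. They held 78.8% of the summed fold times width of the locus, 30.2% in the start peak, 25.9% in the 3′ peak and 22.7% in the inner one. No TOX peak had a fold from 6 to 10. Of the other 23, 4 had a fold of 3 or more. These were 4.54 at chr8:60056743-60061930, upstream of the gene, 4.20 at chr8:59767956-59772822, 3.56 at chr8:59966208-59971962 and 3.63 at chr8:59681462-59683249. The other 19 had folds below 3, the lowest 1.91 at chr8:59916313-59917340. Several weak peaks lay right beside the inner strong one, and the peak of 255 bp at chr8:59893371-59893625 had the lowest -log10 q of the 66, 1.18. Between the inner cluster and the 3′ part, 97.0 kb of the gene body, from 139 to 236 kb from the start, held no peak.

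SATB1 had its strongest peaks in the first part of the gene and weaker ones further along. The start was covered by a peak of 7480 bp at chr3:18481653-18489132, from -2.13 to 5.35 kb, with a fold of 6.71 and a -log10 q of 31.2. The highest fold of the locus, 7.76, belonged to a peak inside the gene, 6339 bp at chr3:18462326-18468664, 18.3 to 24.7 kb from the start, with a -log10 q of 40.9. These 2 peaks were above 80.9% and 86.4% of the list by fold and held 29.7% and 29.1% of the summed fold times width of the locus. RefSeq lists 4 separate start windows for SATB1. The innermost, at chr3:18425290-18425589 in GRCh38.p14 with 33 CpG dinucleotides, lies downstream of the outermost at chr3:18445543-18445842. The distance between these windows, both in GRCh38.p14, falls within the 18.3 to 24.7 kb that the strong inner peak spans from the start. Taking the outermost start as the start used, that peak thus covers the innermost listed start. This placing is by spacing alone, because the start used is rounded to 1 kb and no coordinates were converted between the builds. Which peaks hold the other inner starts was not examined. The 3 smaller peaks near the strong ones had folds of 2.46, 2.08 and 2.23. After a stretch of 27.3 kb without a peak came wide but weak ones, 5056 bp at chr3:18427434-18432489 with a fold of 3.17 and 3910 bp at chr3:18413223-18417132 with a fold of 3.39, and next to them 977 bp with a fold of 2.08. No peak was found upstream of the start peak within 50 kb, on the side where RefSeq places the antisense gene SATB1-AS1. Downstream of the gene lay peaks of fold 3.44 at chr3:18375659-18377704 and 4.59 at chr3:18333872-18337651. The 5 peaks more than 50 kb downstream of the start together held 33.0% of the summed fold times width of the locus. This sum counts whole peaks. Of the 3780 bp of the peak at chr3:18333872-18337651, which gave 10.3% of the sum, only 652 bp lay inside the window.

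**Figure D3:**
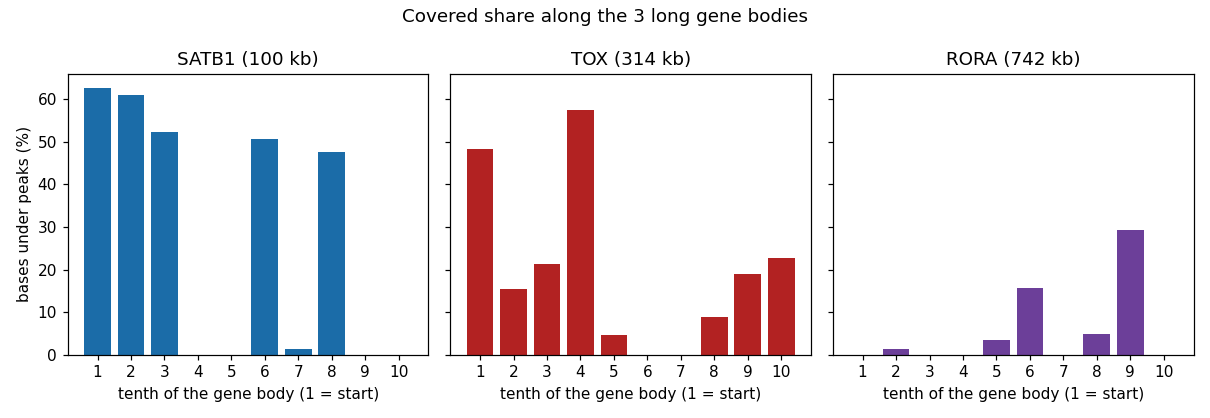
Share of bases under peaks (%) in 10 equal segments of the gene body, from the start (1) to the 3′ end (10), for the 3 genes longer than 50 kb. SATB1 is covered in segments 1 to 3 and again in 6 and 8, TOX most in segments 1 and 4, and RORA in segment 9, with segment 1 of RORA at 0.

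Along the gene bodies the mark was placed differently at SATB1, TOX and RORA. In 10 equal segments counted from the start, the first 3 of SATB1 were covered to 62.7%, 61.0% and 52.3%. The sixth and eighth were covered to 50.6% and 47.5%, nearly as much as the third, while segments 4, 5, 9 and 10 held no peak. At TOX the first segment was covered to 48.3% and the fourth to 57.3%, while the sixth and seventh held no peak. At RORA the first segment was bare, the ninth was covered to 29.2% by parts of 9 peaks, and the sixth to 15.6%. RORA was thus covered mainly in its 3′ part.

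GFI1 had a moderate peak at its start and a stronger one behind its 3′ end. The start peak was 3896 bp wide, at chr1:92948835-92952730 or -0.73 to 3.17 kb from the start, with a fold of 5.82 and a -log10 q of 20.9. Inside the gene, 1227 bp at chr1:92941291-92942517 had a fold of 3.48. The highest fold of the locus, 6.40, was that of a peak of 6072 bp downstream, at chr1:92923478-92929549, 22.5 to 28.5 kb from the start. That peak held 52.5% of the summed fold times width of the locus, and the start peak 30.6%. Both lay above at least 75.8% of the list by fold. On either side of the downstream peak were weak ones of 1516 bp (fold 2.20) and 204 bp (fold 2.24). Upstream, towards EVI5, the next protein-coding gene in the RefSeq order, there was 1 peak of 1563 bp with a fold of 2.85 at chr1:92981004-92982566. The gene body of 12 kb given by the rule is shorter than the 13.9 kb of the RefSeq gene, so the ends of GFI1 are less certain than those of the other 4 genes, which differed by at most 1 kb in length.

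RORA, the longest of the genes at 742 kb, had no peak within 2 kb of the start used here. The nearest peaks were 1393 bp at chr15:61535635-61537027, -15.0 to -13.6 kb from the start, with a fold just above 3, and 1065 bp at chr15:61429082-61430146, 91.9 to 92.9 kb inside the gene, with a fold of 5.42. The start used is that of the longest form of the gene, and RORA also has shorter forms with inner starts. The 1 RORA window in the RefSeq promoter table, at chr15:60627481-60627780 in GRCh38.p14, is at such an inner start. Whether a peak lies at an inner start was not examined, as no hg19 annotation of them was used. A stretch of 211 kb of the gene body, 92.9 to 304 kb from the start, was without a peak.

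The highest fold at RORA, 8.90, was that of a peak of 8790 bp in the middle of the gene, at chr15:61129896-61138685, 383 to 392 kb from the start, with a -log10 q of 50.3. It held 32.9% of the summed fold times width of the locus. In the 3′ part a group of 10 peaks lay between chr15:60854993 and chr15:60943420. The strongest of this group were a fold of 6.00 over 4304 bp at chr15:60904126-60908429, 4.91 over 7071 bp at chr15:60878318-60885388 and 4.86 over 3556 bp at chr15:60939865-60943420. Most of the others in the group had folds below 3. The second-highest fold of the locus, 8.77, was outside the gene, 3060 bp at chr15:60769186-60772245 in the 3′ flank. The next protein-coding gene on that side in the RefSeq order is ICE2, a subunit of the little elongation complex, and the antisense RNA gene RORA-AS1 also lies there. Peaks were not assigned to genes, so this peak need not belong to RORA. The highest fold at RORA, 8.90, lay in the gene body, so leaving out this peak or the flanks could not change it.

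Peaks were then joined across the whole list where they were no more than 12.5 kb apart, and the 25510 joined regions were put in order of their summed fold times width. Regions of SOX4 and TOX had the highest ranks among the loci, in an order that depended on the value used. The SOX4 region, 29.2 kb with 4 peaks at chr6:21587024-21616249, ranked 510. Ordered by summed width instead, the best region of TOX ranked 602 and that of SOX4 1213. By fold times width TOX had 3 regions of high rank, 705 for 69.8 kb with 9 peaks around its 3′ end, of which the outermost lie beyond the window, 857 for the start peak, which joined no other, and 1132 for 48.7 kb with 8 peaks inside the gene. All 4 were above 95.6% or more of the joined regions. SATB1 had its highest rank, 1806, in 29.4 kb with 5 peaks from the start inwards. RORA reached rank 2806 with its isolated inner peak and 3942 with 6 peaks of its 3′ group. GFI1 reached 3182 with 30.4 kb and 5 peaks, which took in the start and the downstream peak. The joined regions at RORA numbered 10 and those at TOX 7, against 4 at SATB1 and 2 each at SOX4 and GFI1, though the windows of RORA and TOX are also the longest.

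**Figure D4:**
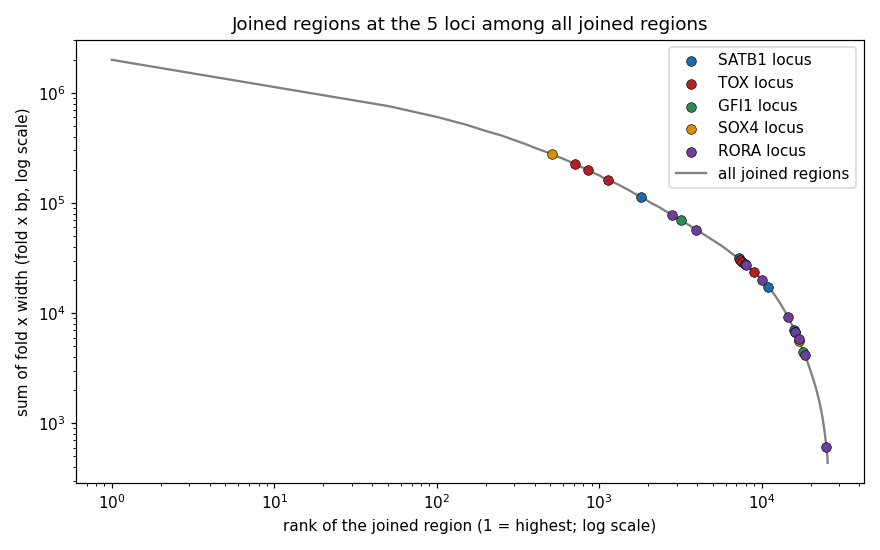
Summed fold times width against rank for the joined regions of the loci (points) and for all 25510 joined regions (grey line), both axes on log scales. The highest point is the SOX4 region at rank 510, followed by the 3 TOX regions at ranks 705, 857 and 1132.

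Peaks also lay beyond the edges of the windows. On the 3′ side of TOX the edge cut through a joined region, chr8:59652653-59722405. Upstream of TOX the outermost peak inside had a fold of 4.54, and the first beyond, 10.2 kb past the edge, had 11.3. Downstream of SOX4 the last inside had 3.62, and the first beyond had 6.30. Upstream of GFI1 the next peak, of fold 2.07, began 0.335 kb past the edge. At RORA the first peak beyond the upstream edge was 243 kb away.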

How the data were processed

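H3K27ac ChIP-seq and input DNA of LOUCY were deposited as 1 peak list. Per the file headers, the authors called broad peaks with MACS2 2.1.0.20140616 on 1 ChIP library against 1 input library, keeping 1 tag per position, which limits the height of the strongest peaks. Bowtie2 and hg19 are named in the submitters' processing notes. The deposited fold is a ratio of ChIP to local input, and the deposited -log10 p-value and q-value are the caller's per peak. The pileup column was unusable and left out. Gene bodies were rounded to 1 kb. The strand came from the RefSeq promoter table (GRCh38.p14) for 4 genes and from general knowledge for TOX. A start peak overlapped 2 kb either side of the start. Peaks named were those at starts, the 3 of highest fold, the widest and the outermost in the gene body. Further peaks were picked with their values in view. The cytoband table in the R package circlize gave hg19 chromosome lengths. The members and lists were chosen with earlier results of these data known. Other genes of these families are not analysed here. Alternatives changed the thresholds, flanks, overlap, joining and ranking. The overlap and joining steps were tested on simulated data. Calculations used Python 3.11.15, numpy 2.4.6 and pandas 2.3.3.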

Additional observations from a re-analysis of the deposited data

How the results depend on the processing

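The count of genes with a start peak was 4 of 5 within 1 kb or 5 kb of the start and at a -log10 q of at least 10. These alternatives could not have changed it. The 4 peaks lay over the start itself with a -log10 q of 20.9 or more, and the nearest RORA peak ended at -13.6 kb. Peak numbers fell with stricter thresholds, because the weak ones were lost. With only peaks of -log10 q 10 or more, the numbers were 4 at SATB1, 6 at TOX, 2 at GFI1, 2 at SOX4 and 6 at RORA, and at a fold of at least 4 there were 3, 5, 2, 2 and 6 in that order. With the gene body alone, GFI1 had 2 and SOX4 1, and with 100 kb either side 11 and 8. Covered shares at a -log10 q of at least 10 were 8.26% at SATB1, 15.6% at TOX and 3.31% at RORA, and at a fold of at least 4 they were 7.24%, 14.2% and 3.31%. In the gene body alone they were 27.5% at SATB1, 36.6% at GFI1 and 100% at SOX4, and with 20 kb either side 22.7%, 24.8% and 50.2%. By the highest -log10 q, the leading peak had a fold of 10.1 at TOX, 12.4 at SOX4 and 8.77 at RORA. The highest fold in the gene body alone was 5.82 at GFI1 and 12.4 at SOX4. With 100 kb either side, an alternative chosen after seeing the data, it was 11.3 at TOX. The best rank of a joined region, 1806 of 25510 at SATB1 and 3182 at GFI1, was 4459 and 5866 of 15235 at a -log10 q of at least 10. Joining within 5000 bp gave 5605 of 35140 at GFI1. Ranking by summed width gave 1213 at SOX4, behind 602 at TOX. For these changes other than the lost weak peaks and the changed windows, the cause was not tested. The other 57 of the values recomputed under an alternative stayed within 1.5 times for counts and ranks, the 95% Wilson interval in units of 1 kb for covered shares, or were equal for the highest fold. That interval depends on the length of a locus, measures no error between libraries and is wide for short loci. Within it fell the share of SOX4 with 100 kb either side, 15.4% against 22.3%. The share of GFI1 at a -log10 q of at least 10, 8.90% against 12.9%, was also within it. No paired analysis was possible because the ChIP and the input had 1 library each. With 1 library pair, folds of similar size cannot be ranked with confidence.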

Other observations

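Peaks between 50 and 300 kb outside the gene bodies were looked at after the values at the loci had been seen. The area around TOX held 30 such peaks, that around SOX4 33 and that around SATB1 37, against 8 around GFI1 and 4 around RORA. The strongest near TOX, at chr8:60092157-60105166, had a fold of 11.3 and a width of 13010 bp and lay 60.2 to 73.2 kb upstream of the start, so its fold was above that of every peak inside the TOX window. Also upstream of TOX, 15195 bp at chr8:60207712-60222906 had a fold of 8.03. Near SATB1 the widest was 29721 bp at chr3:18116385-18146105, on the 3′ side, with a fold of 6.75 and rank 158 by width. It was wider than each of the 66 peaks at the 5 loci, of which the widest was 18904 bp. The strongest there had a fold of 7.54, at chr3:18262154-18268454. Near SOX4, on the side of the long noncoding RNA gene CASC15, a peak of 7895 bp at chr6:21843697-21851591 had a fold of 10.1. Near GFI1 the strongest, at chr1:92763526-92765447, had a fold of 8.69, and near RORA, at chr15:60688813-60692016, 8.48. Which genes these peaks act on was not tested.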
